A study of Mus musculus with 5 samples.

Results

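The annexins, the S100 proteins and the calpains are 3 families of calcium-binding or calcium-activated proteins, and they were followed here through the peri-implantation days in the luminal layer of the mouse uterus. Members were chosen by gene symbol alone, as every gene of the deposited table named Anxa, S100a or Capn with a number, together with S100b, S100z, the calpain small subunit Capns1, the calpain inhibitor Cast and the scaffold gene Ahnak. This gave 43 of 23420 genes, namely 12 annexins, 16 S100 genes, 14 genes of the calpain system (the calpains, Capns1 and Cast) and Ahnak. All 43 were found by symbol in the GENCODE vM21 annotation, where 42 are protein coding and Anxa13 is a processed transcript.

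The luminal layer, which holds the luminal epithelium, was collected from pregnant wild-type C57BL/6N mice, and the day of the vaginal plug was day 1. Laser microdissection is described for the Lif groups of the same study. There were 5 RNA-seq libraries, 1 each for day 3 morning, day 4 morning (before embryo attachment), day 4 evening and, on day 5 morning, the layer away from the attached embryo and the layer around it. The labels name these last positions the M pole and the AM pole, so nearness to the embryo and pole of the uterus cannot be told apart. The words "away" and "around" stand for both. In the study's methods a blue dye given by vein shows the attachment sites from day 5. All animals were wild type, the labels give no other treatment and no ages, and whether each library holds RNA of 1 mouse or more is not given in the sources used here. For the Lif groups, RNA of independent samples was pooled into 1 library each. With 1 library per condition no difference has a replicate check, so no p-value is given, and the word "higher" or "lower" compares a pair of libraries.

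Annexins bind acidic phospholipids when calcium rises and link membranes to the cytoskeleton and to each other. S100 proteins are small EF-hand proteins that change shape on binding calcium and then dock to targets, among them annexins: S100a10 joins Anxa2, S100a11 joins Anxa1, and S100a8 pairs with S100a9 to form calprotectin. Calpains are calcium-activated cysteine proteases that cut cytoskeletal and adhesion proteins at chosen sites, and the classical ones pair a large subunit with Capns1 and are inhibited by calpastatin, the product of Cast. In the uterus the luminal epithelium flattens, loses polarity and is remodelled at attachment, and members of these families have long been studied in receptive endometrium.

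The libraries held from 15334674 to 19529491 counts, of which the members took between 0.337% and 0.557%. Rn45s and Lars2 together made up 15.0% to 23.2% of each library. Levels are given as CPM, counts scaled to a library of 1e+06 after TMM correction of library sizes, and differences as log2 ratios of CPM with a prior count of 2. A floor of 3 counts equals between 0.161 and 0.190 CPM. A mean of at least 1 CPM was reached by 12918 genes, among them 30 members (10 annexins, 11 S100 genes, 8 of the calpain system and Ahnak). Brackets give the 95% interval of a log2 ratio from counting error alone (Clopper-Pearson), which does not cover variation between animals.

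The 13 members below 1 CPM were Anxa10, Anxa13, S100a2, S100a5, S100a7a, S100b, S100z, Capn3, Capn8, Capn9, Capn11, Capn12 and Capn13. Of these, Capn9 and Capn13 had 0 counts in every library, which allows up to 3 counts in each. The best covered was Capn3, the calpain of skeletal muscle, with 11, 17, 21, 10 and 12 counts in the order day 3 morning, day 4 morning, day 4 evening, day 5 away and day 5 around, an order kept in all lists of counts that follow. None of the other 12 passed 14 counts in any library, a value that S100b had around the embryo.

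The layer around the attached embryo stood apart from the other libraries in the S100 genes. Among the 30 members that passed, 14 were more than 2-fold higher and 5 more than 2-fold lower around the embryo than on day 4 morning, where 20.7% and 22.6% of all genes tested were past 2-fold higher and lower. All 11 S100 genes that passed lay above 0 in that comparison, 8 of them past 2-fold, with a median log2 difference of 2.04 beside −0.03 over all genes tested. Of these 11, S100a3, S100a8 and S100a9 reached 1 CPM only through the library around the embryo, as did Capn6, so the filter had a part in their place above 0 and they give it no support. With the mean taken over the other 4 libraries, an alternative chosen after seeing the data, 26 members passed, of which 11 were higher and 5 lower, beside 19% and 23.5% of 12753 genes, and 5 of the 8 S100 genes left were past 2-fold higher, with a median of 1.93. Annexins were divided, with 4 past 2-fold higher and 4 lower, and the calpain system held 1 of each. Against the layer away from the embryo, 12 of the 30 were past 2-fold higher and 1 was lower (13.3% and 15% of all genes tested), and of the 11 S100 genes 8 were higher and 0 lower, with a median of 2.26 beside −0.05 over all genes tested. With the filter on the other 4 libraries 8 of 26 members were higher and 1 lower, beside 11.6% and 15.7% of genes, and 5 of 8 S100 genes were higher and 0 lower, with a median of 1.46. These comparisons share the library around the embryo. In bulk tissue, fewer cells of a type and less RNA per cell cannot be told apart.

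The layer away from the embryo had another composition. Against day 4 morning, 5 of the 30 members were past 2-fold higher and 7 were lower, beside 15% and 14.3% of all genes tested. Their median log2 difference was −0.15 with TMM scaling, beside 0.00 over all genes tested. With library totals it was 0.13, beside 0.28. The member median thus lay below that of all genes under both scalings. Its sign depended on the scaling, so no sign is given for the members as a group. Of the 12 calls, 7 were annexins, with 3 higher and 4 lower. From day 3 to day 4 morning 5 were higher and 6 lower (7.41% and 11.5% of all genes tested). With library totals 3 were higher and 8 lower, beside 4.16% and 17.1% of all genes under that scaling. With TMM, 4 of the 6 lower genes were S100 genes. One of these 4, S100a3, had 5 counts and then 0, with a counting interval that includes no change. It is 1.72-fold lower against the floor of 3 counts, and with that value for it the S100 median was −0.79 in place of −0.84. From day 4 morning to day 4 evening 4 were higher and 1 was lower (7.2% and 6.94%). One of these 4 calls was again S100a3, with 0 and 2 counts, so no fold is given for it, and 3 higher remain without it. Of the 5 comparisons, 4 use the day 4 morning library, so their differences are not independent.

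**Figure D1:**
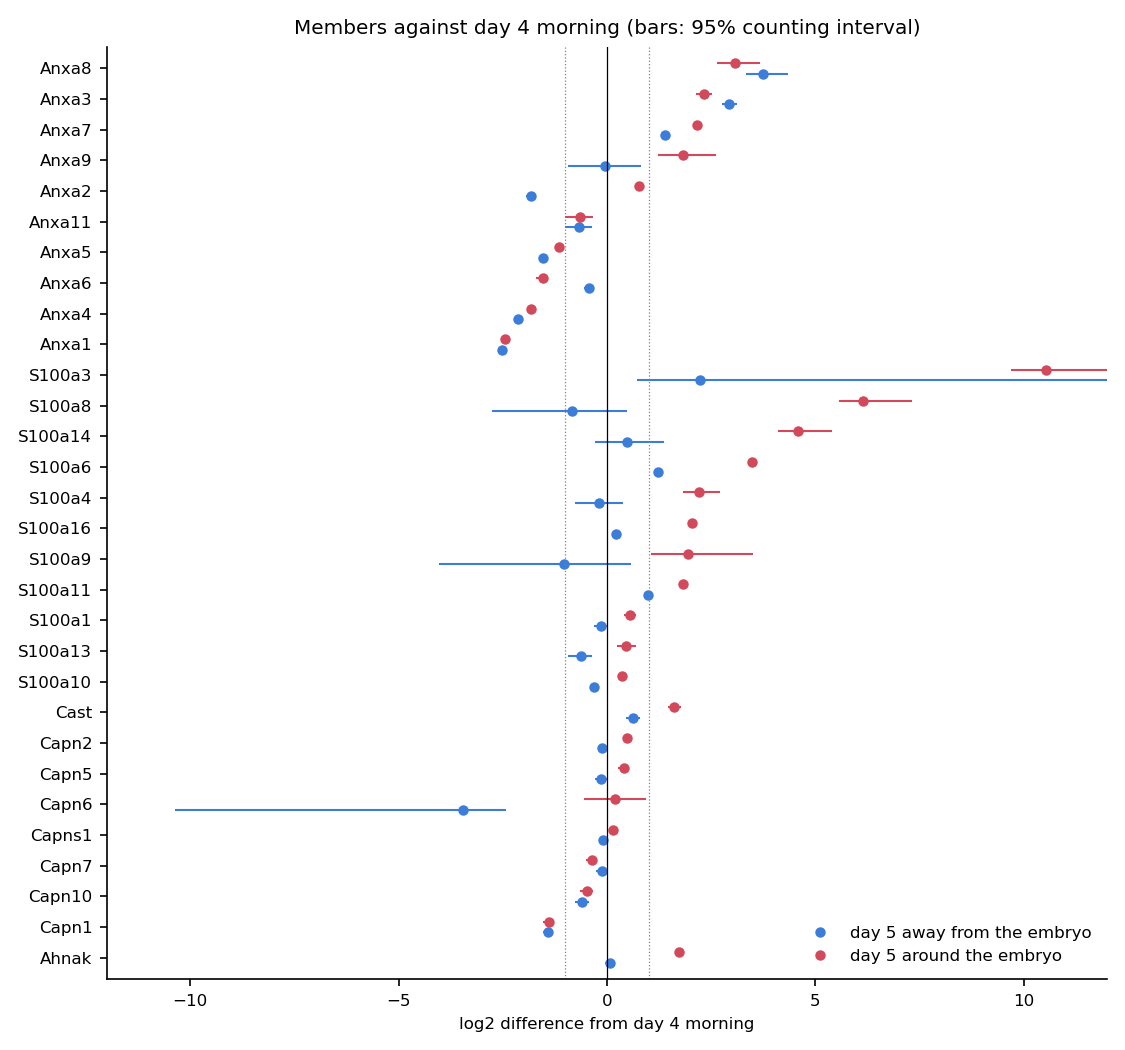
Log2 difference from day 4 morning (x axis) of the 30 members that passed, by family (y axis), with blue points for day 5 away from the embryo and red points for day 5 around it. Bars are 95% counting intervals, which run out of the panel for S100a3 because day 4 morning had 0 counts, and dotted lines mark 2-fold. All 11 S100 genes have red points above 0, of which S100a3, S100a8 and S100a9 passed only through that library, while annexin points lie on both sides.

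Seen member by member across day 5, 5 genes were past 2-fold higher than day 4 morning at both positions (Anxa3, Anxa7, Anxa8, S100a3 and S100a6) and 4 were lower at both (Anxa1, Anxa4, Anxa5 and Capn1). A further 9 were higher only around the embryo, 1 was lower only around it (Anxa6), and 3 were lower only away from it (Anxa2, Capn6 and S100a9). Over all genes tested, 10.9% were higher at both positions, 10.8% lower at both, 9.79% higher only around, 11.8% lower only around and 3.48% lower only away. The place of S100a3 away from the embryo rests on 8 counts against 0. S100a9 is counted in both the 9 and the 3, since it lay past 2-fold on opposite sides at the 2 positions. The highest of the 5 libraries was the one around the embryo for 16 of the 30 members and for 9 of the 11 S100 genes, while 28.8% of all genes tested were highest there. Without the 4 genes that passed only through that library, 12 of 26 members and 6 of 8 S100 genes were highest there, beside 27.1% of genes. The widest log2 range over the libraries belonged to S100a3 with 10.54, followed by S100a8 with 7.33 and Anxa8 with 6.95, and the narrowest to Capn7 with 0.39.

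**Figure D2:**
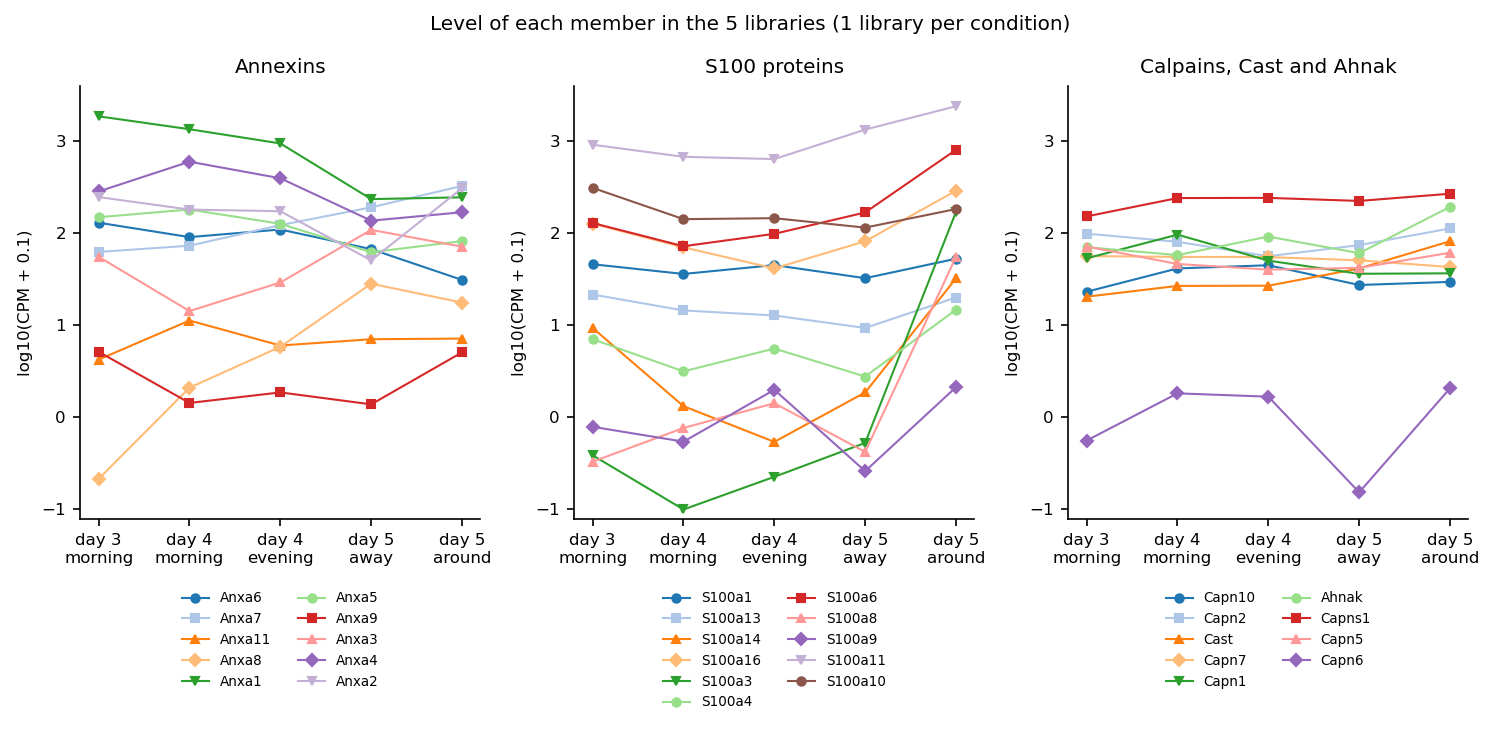
Level of each member that passed in the 5 libraries (x axis) as log10(CPM + 0.1) (y axis), 1 panel for annexins, 1 for S100 genes and 1 for calpains, Cast and Ahnak. Lines join the values of a gene for the eye, the day 5 libraries are 2 positions of the same day, and S100a3, with 2947 counts around the embryo, and S100a8, with 955, are far higher there than in the other 4 libraries.

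Most S100 genes lie side by side. On chromosome 3 of GRCm38/mm10, 12 of the 16 S100 genes occupy 90511034 to 90695691, with 0 other genes of the table starting inside, and S100a11 and S100a10 form a second group at 93520496 to 93564645. Of the 12, 9 passed, and 8 of these 9 were past 2-fold higher around than away from the embryo, beside 13.3% of all genes tested. The remaining gene, S100a1, stood at 0.70 [0.55, 0.85]. Without S100a3, S100a8 and S100a9, which passed only through the library around the embryo, 5 of 6 were past 2-fold higher. The share of all genes was 11.6% with the filter on the other 4 libraries. The 5 nearest tested genes before the block (Ints3, Npr1, Ilf2, Snapin and Chtop) lay between −0.99 and 0.14 in the same comparison, none past 2-fold. After the block the next 5 tested genes begin at 92080271 and are cornified-envelope genes, and all were past 2-fold higher around the embryo. They were Lor, with 2 counts away and 12 around, and the small proline-rich genes Sprr2b, Sprr2d, Sprr2e and Sprr2f, which are near copies of each other so that the split of reads among them is uncertain. Against day 4 morning, Lor around the embryo stood at −0.39 and the Sprr2 genes between 5.56 and 13.33. Sprr2f had 953 counts away and 101770 around, a log2 difference of 6.85. This neighbourhood is known as the epidermal differentiation complex, whose genes serve the barrier of stratified epithelia.

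**Figure D3:**
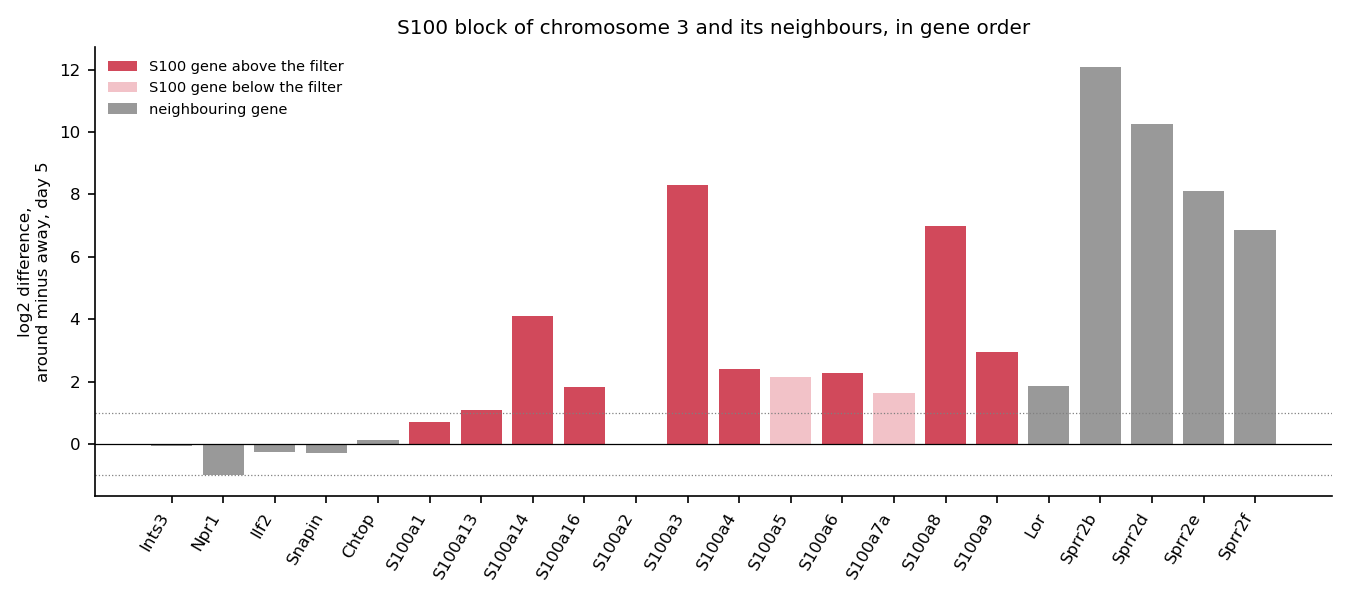
Log2 difference between the day 5 library around the embryo and the one away from it (y axis) for the genes of the S100 block of chromosome 3 and the 5 nearest tested genes on each side, in gene order (x axis, not to scale). Red bars are S100 genes above 1 CPM, pale bars S100 genes below it and grey bars neighbours, dotted lines mark 2-fold, and no bar is drawn for S100a2, which had at most 3 counts in both libraries. The S100 genes above 1 CPM are all above 0, S100a3, S100a8 and S100a9 having passed only through the library around the embryo, and the 5 genes after them are above 0 too.

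The stretches just before the start sites of 5 members are shown because these members gave the main contrasts: S100a3 and S100a8 were nearly confined to the layer around the embryo, S100a11 and Anxa1 were the best covered of their families, and Anxa2 differed most between the day 5 positions among annexins. Sequences are from RefSeq on GRCm38.p6, written on the strand of the gene, with TATAAA and TGANTCA (the AP-1 element) in capitals, at chr3:90600064-90600213 for S100a3, chr3:90668921-90669070 for S100a8, chr3:93520346-93520495 for S100a11, chr19:20390672-20390821 (minus strand) for Anxa1 and chr9:69453533-69453682 for Anxa2.
S100a3: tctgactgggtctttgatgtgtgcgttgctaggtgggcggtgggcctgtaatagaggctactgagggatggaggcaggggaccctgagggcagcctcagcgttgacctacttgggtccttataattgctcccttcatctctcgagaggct
S100a8: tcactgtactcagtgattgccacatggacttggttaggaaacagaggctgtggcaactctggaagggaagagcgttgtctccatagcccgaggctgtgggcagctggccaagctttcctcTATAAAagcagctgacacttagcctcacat
S100a11: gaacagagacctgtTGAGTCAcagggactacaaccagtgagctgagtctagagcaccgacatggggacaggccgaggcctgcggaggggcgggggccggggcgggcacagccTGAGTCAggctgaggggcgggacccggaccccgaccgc
Anxa1: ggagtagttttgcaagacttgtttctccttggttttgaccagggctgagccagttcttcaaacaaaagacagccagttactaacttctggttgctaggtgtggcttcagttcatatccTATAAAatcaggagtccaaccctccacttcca
Anxa2: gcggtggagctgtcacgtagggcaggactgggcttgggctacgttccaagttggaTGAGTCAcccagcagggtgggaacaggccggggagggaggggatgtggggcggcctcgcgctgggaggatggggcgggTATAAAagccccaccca

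Promoter windows of 300 bases (250 before to 50 after the start) were found in the RefSeq table for 36 of the 43 members, 25 of them among those that passed. TATAAA, read on both strands, occurred in 5 of these 25 windows (20%) beside 13.6% of 32851 windows in all, and TGANTCA occurred in 5 (20%) beside 7.81%. TTCNNNGAA, the letters bound by STAT factors, occurred in 0 of the 25 windows beside 8.30% in all. Both TGANTCA and TTCNNNGAA read the same on either strand, and none of the 3 runs of letters overlap in the stretches shown. The TATA letters began 30 bases before the start of S100a8, 32 before Anxa1, 31 before S100a4 and 17 before Anxa2. S100a11 carried TGANTCA at −136 and again at −38, and neither TATAAA nor TGANTCA was in the stretch of S100a3. A match is a run of letters and says nothing about binding, which was not measured.

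Of the S100 members chosen by symbol, S100a11, known as calgizzarin and as a ligand of Anxa1, had the most counts. S100g, outside that choice and described with the partners, had more counts in 3 of the 5 libraries. S100a11 (chromosome 3, 93520496 to 93526288, plus strand) had 15913, 12172, 10123, 24964 and 41346 counts. It was lowest on day 4 evening and highest around the embryo, where it was 3.54-fold above day 4 morning (log2 1.82 [1.80, 1.85]). For the layer away from the embryo the log2 difference was 0.98 [0.95, 1.01] with TMM and 1.26 with library totals, so its place at 2-fold depends on the scaling.

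S100a6 (calcyclin, chromosome 3, 90612894 to 90614414, plus strand) binds annexins and the calcyclin-binding protein Cacybp. Its counts were 2245, 1298, 1559, 3140 and 13905. Both day 5 libraries were above all 3 earlier ones, with a log2 difference from day 4 morning of 1.22 [1.13, 1.31] away and 3.48 [3.40, 3.56] around the embryo, and 2.26 [2.21, 2.32] between the positions.

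S100a3, a cysteine-rich member known from the hair cuticle (chromosome 3, 90600215 to 90602702, plus strand), was nearly absent from 4 libraries. It had 5, 0, 2, 8 and 2947 counts. Against day 4 morning, where it had 0 counts, S100a3 around the embryo was at least 833-fold higher by the lower limit of its counting interval, and 1024-fold higher against the floor of 3 counts. For the layer away from the embryo these values were 1.64-fold and 2.57-fold, and the former is under 2-fold. Between the day 5 positions it was 399-fold higher around the embryo (interval 202 to 925).

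The calprotectin subunits S100a8 and S100a9, which neutrophils store in large amounts and epithelia make under stress, did not move alike. S100a8 (chromosome 3, 90669071 to 90670034, plus strand) had 4, 12, 21, 6 and 955 counts, and S100a9 (90692633 to 90695691, minus strand) had 12, 8, 30, 3 and 35. S100a8 was 83.0-fold higher around the embryo than on day 4 morning (log2 6.15 [5.56, 7.33]) and 172-fold higher than away from it. S100a9 around the embryo was within a few counts of day 4 evening, and its difference from day 4 morning was 1.94 [1.06, 3.51]. The layer away from it stood at −1.02 [−4.02, 0.59], an interval that includes 0. Per length, the ratio of S100a8 to S100a9 RPKM was between 0.415 and 2.49 in 4 libraries and 34.0 around the embryo.

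The neutrophil markers do not form a complete set in any library. Of 10 listed, 9 were in the table, and Camp, Ngp, Elane and Retnlg, which encode granule or neutrophil-specific proteins, had 0 counts everywhere. Mpo had 5 counts and the receptor Cxcr2 had 80 around the embryo, where Mmp9 had 59. Csf3r, the 1 neutrophil marker above 1 CPM, had 25, 27, 6, 16 and 16 counts and was not raised there. Mmp8 had 10, 0, 0, 0 and 0 counts. The 9 markers summed to 9.29 CPM around the embryo, beside 0.695 to 2.02 CPM in the other libraries. Leukocyte markers, 8 of 8 in the table, were lowest around the embryo with 65.2 CPM, beside 292 to 412 CPM elsewhere. The part of neutrophils in the S100a8 and S100a9 counts was not tested.

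S100a10 (p11, the light chain of the Anxa2 complex, chromosome 3, 93555117 to 93564645, plus strand) had 5409, 2556, 2307, 2148 and 3159 counts. It was highest on day 3 morning, with a log2 difference of −1.13 [−1.20, −1.06] to day 4 morning, and was past 2-fold in no later comparison. S100a16 (90541223 to 90543151), an epithelial EF-hand protein, had 2208, 1262, 656, 1527 and 4996 counts and was higher around the embryo than on day 4 morning by 2.04 [1.96, 2.14]. S100a13 (90514435 to 90524581), which takes part in release of FGF1 from cells, had 374, 259, 201, 173 and 344 counts. Only its difference between the day 5 positions passed 2-fold, at 1.10 [0.84, 1.38], and with library totals it was 0.79.

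The counts of S100a14 and S100a4, which were below 10 CPM on average, are shown after they had been seen. S100a14 (90526849 to 90528835), a membrane-associated epithelial member, had 161, 22, 7, 33 and 556 counts, so that day 3 morning and the layer around the embryo were both above the other 3 libraries. S100a4 (90603770 to 90606045), which binds non-muscle myosin, had 121, 55, 87, 50 and 253 counts. S100a1 had 799, 648, 713, 605 and 910 counts and was past 2-fold in none of the comparisons.

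Among the annexins, Anxa1 was lower at both day 5 positions. Anxa1 (chromosome 19, 20373434 to 20390671, minus strand) encodes the glucocorticoid-induced annexin A1, which limits inflammation. Its counts were 32383, 24247, 14971, 4385 and 4236. Each library after day 3 morning was lower than the one before it up to day 5, and the day 5 libraries differed from each other by only 0.07 [0.00, 0.13]. Around the embryo Anxa1 was 5.49-fold below day 4 morning (log2 −2.46 [−2.50, −2.41]).

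Anxa4 and Anxa5 shared that day 5 pattern. Anxa4 (chromosome 6, 86736840 to 86793584, minus strand), an annexin of secretory epithelia, had 4944, 10768, 6267, 2557 and 2914 counts. Day 4 morning was its highest library, above day 3 morning by 1.07 [1.03, 1.12] with TMM and 0.77 with library totals, and both day 5 libraries were below every earlier one, at −2.13 away and −1.82 around the embryo. Anxa5 (chromosome 3, 36448924 to 36475887, minus strand), whose protein binds exposed phosphatidylserine, had 2596, 3253, 2005, 1161 and 1414 counts, with differences of −1.54 and −1.14 from day 4 morning.

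Anxa2 was the annexin that most separated the day 5 positions. Anxa2 (chromosome 9, 69453683 to 69491785, plus strand) encodes a membrane and actin linker that also assembles plasminogen activation at the cell surface. Its counts were 4297, 3248, 2748, 946 and 5307. The layer away from the embryo was the lowest library, at −1.83 [−1.94, −1.73] from day 4 morning, and the layer around it the highest, at 0.77 [0.71, 0.83], a 6.08-fold gap between the positions (log2 2.60 [2.50, 2.70]). S100a10, its light chain, differed by 0.67 [0.59, 0.75] between the same libraries. The ratio of Anxa2 to S100a10 RPKM was 0.376, 0.601, 0.564, 0.208 and 0.795, so that it was lowest away from the embryo and highest around it.

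Anxa6 (chromosome 11, 54978962 to 55033471, minus strand), the annexin with a duplicated core, differed in the other direction. It had 2262, 1631, 1738, 1253 and 535 counts. Around the embryo it was below day 4 morning by −1.54 [−1.69, −1.41] and below the layer away from it by −1.11 [−1.26, −0.97], which made it the 1 member past 2-fold lower between the day 5 positions.

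Anxa3, Anxa7 and Anxa8 were higher at both day 5 positions. Anxa3 (chromosome 5, 96793385 to 96845968, plus strand) had 963, 255, 461, 2031 and 1230 counts, with its lowest library on day 4 morning, and lay 2.93 [2.75, 3.13] above it away from the embryo and 2.32 [2.13, 2.53] around it. Anxa8 (chromosome 14, 34085990 to 34100568, plus strand), typical of stratified epithelia, had 2, 36, 91, 527 and 303 counts. Its low count on day 3 morning leaves the ratio of day 4 to day 3 morning wide, at 17.4-fold with an interval of 4.48 to 149, and it was 14.1-fold and 8.78-fold above day 4 morning away from and around the embryo. Anxa7 (synexin, a membrane fusion annexin, chromosome 14, 20455261 to 20480133, minus strand) had 1088, 1315, 1939, 3567 and 5628 counts, lowest on day 3 morning and highest around the embryo. Between the day 5 positions Anxa3 and Anxa8 were higher away from the embryo by less than 2-fold, while Anxa7 was higher around it by 0.77 [0.71, 0.83].

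The remaining annexins that passed were low. Anxa9 had 88, 24, 28, 24 and 86 counts and Anxa11 had 72, 201, 94, 130 and 122, values that were chosen after the counts had been seen. Anxa9 shares 284 exonic bases with Fam63a on the other strand, and since the strand setting of the counting is not given in the sources used here, their reads may be mixed.

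The weight of the families changed with these genes. Per length, the summed RPKM of the annexins was 1855, 1578, 1184, 487 and 714, and that of the 16 S100 members 2728, 1819, 1781, 3220 and 7005. Annexin RPKM was thus lowest at the day 5 positions and that of the S100 members highest there. S100g is not in this sum, and with it the S100 total was 3637, 6195, 8530, 12820 and 9359, higher away from the embryo than around it. Anxa1 held 72.1% of annexin RPKM on day 3 morning and 24.7% around the embryo, where Anxa2 held 31.4%. The ratio of Anxa1 to Anxa2 RPKM was 7.42, 7.35, 5.37, 4.57 and 0.786. Among the S100 members without S100g, S100a11 held between 66.6% and 82.5% of RPKM in every library, and S100a6 reached 16.0% around the embryo beside 5.52% to 7.69% elsewhere. With S100g in the total, the share of S100a11 was between 14.9% and 50.9%.

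**Figure D4:**
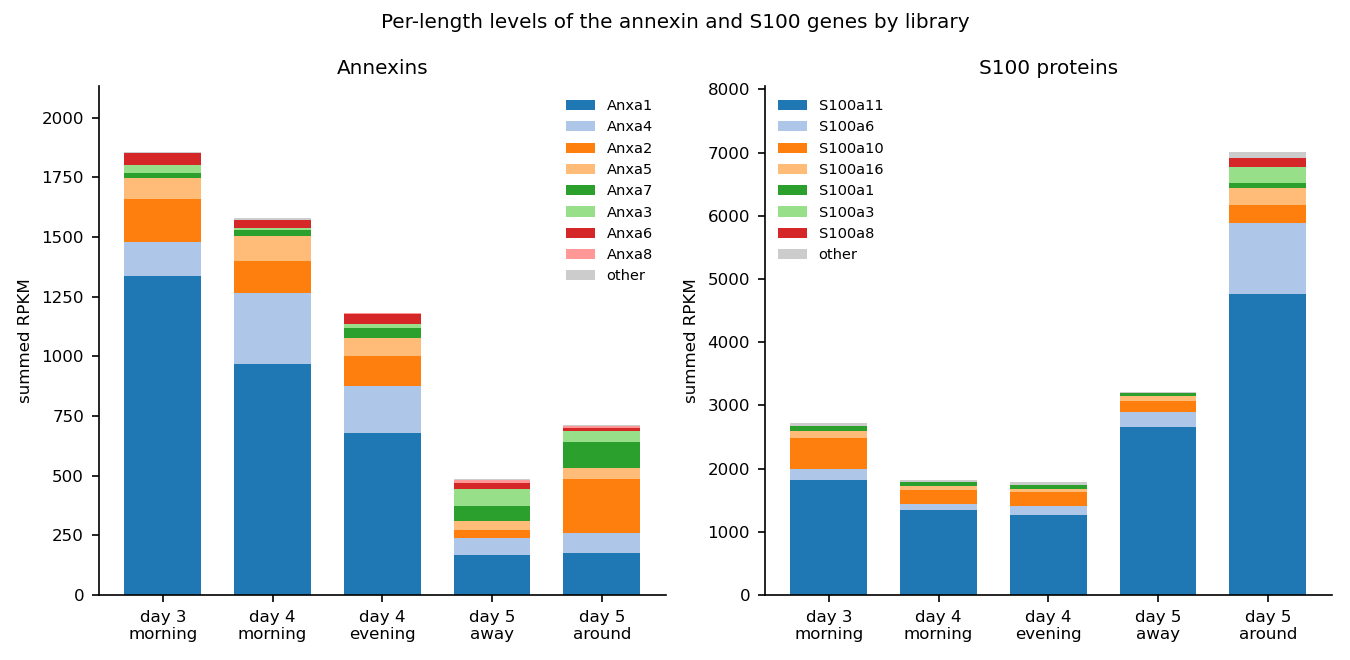
Summed RPKM (y axis) of the annexin genes (left) and the S100 members without S100g (right) in the 5 libraries (x axis), with the parts held by single genes in colour and the rest in grey, 1 library per bar. The annexin bars are lowest at 487 and 714 on day 5, where the S100 bars are highest at 3220 and 7005, and most of each S100 bar is S100a11.

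In the calpain system few members were past 2-fold. Capn1 (chromosome 19, 5988545 to 6015825, minus strand), the large subunit of µ-calpain, had 927, 1735, 797, 676 and 631 counts. It was highest on day 4 morning and lower at both day 5 positions by −1.41 [−1.54, −1.29] away and −1.40 [−1.53, −1.27] around the embryo. It shares 475 exonic bases with Gm10814 on the other strand. Capn2 (chromosome 1, 182467259 to 182517483, minus strand), the large subunit of m-calpain, had 1720, 1449, 889, 1387 and 1942 counts, and Capns1 (chromosome 7, 30186942 to 30195048, minus strand), the small subunit of both, had 2648, 4334, 3836, 4189 and 4633. Neither passed 2-fold in any comparison. The ratio of Capn1 to Capn2 RPKM was 0.538, 1.20, 0.895, 0.486 and 0.324, with Capn1 above Capn2 on day 4 morning alone.

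Cast (chromosome 13, 74694286 to 74807921, minus strand), which encodes calpastatin, had 354, 480, 425, 772 and 1411 counts. Both day 5 libraries were above the 3 earlier ones, and around the embryo Cast was 3.06-fold above day 4 morning (log2 1.61 [1.47, 1.77]). Its difference between the day 5 positions was 0.98 [0.86, 1.11] with TMM and 1.04 with DESeq2 size factors. With library totals, as with TMM, it stayed under 2-fold. The ratio of Cast RPKM to the sum of Capn1 and Capn2 was 0.147, 0.166, 0.278, 0.412 and 0.604, highest around the embryo. The ratio of Capns1 to that sum was 2.23, 3.03, 5.07, 4.53 and 4.01, which had its peak on day 4 evening.

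The other calpains that passed are outside the classical pair. Capn5, Capn7 and Capn10 were past 2-fold in none of the comparisons, and Capn7 ranged from 740 to 994 counts. Capn10 shares 607 exonic bases with 9430060I03Rik on the other strand. Capn6, a calpain without a working active site, had 8, 31, 25, 1 and 34 counts, values shown after they had been seen. The single read away from the embryo sets its ratio between the day 5 positions at 36.8-fold with an interval of 6.18 to 1497. Summed RPKM of the calpain system stayed between 202 and 300.

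Ahnak (chromosome 19, 8989284 to 9076919, plus strand), a giant scaffold that holds Anxa2 and S100a10 at the plasma membrane, had 1224, 1040, 1456, 1133 and 3331 counts. The first 4 libraries lay between 57.9 and 92.0 CPM, with day 4 evening above day 4 morning by 0.67 [0.55, 0.78]. The one around the embryo was above them all, at 193 CPM. It stood 1.74 [1.64, 1.84] over day 4 morning and 1.67 [1.57, 1.77] over the layer away from the embryo.

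A list of 28 partners and relatives outside the 3 families (other EF-hand proteins, receptors, phospholipase and plasminogen genes, cytoskeletal targets) had 27 genes in the table, 21 above 1 CPM. For the layer away from the embryo, 8 were past 2-fold above day 4 morning and 2 below, with a median of 0.82. For the layer around it, 10 were above and 3 below, with a median of 0.97. Over all genes tested the shares were 15% and 14.3% away and 20.7% and 22.6% around, so the 3 of 21 lower around were a smaller share than over all genes. Between the day 5 positions 4 were higher and 4 lower, beside 13.3% and 15% of all genes. Plau, with 25, 4, 2, 9 and 60 counts, reached a mean of 1 CPM only through the library around the embryo. It is among the 10 above day 4 morning there and the 4 higher between the positions, and gives these counts no support. The median of 0.82 away from the embryo is its own value. From day 3 to day 4 morning 1 was higher and 4 lower, beside 7.41% and 11.5%. From day 4 morning to day 4 evening 2 were higher and 0 lower, beside 7.2% and 6.94%.

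Several of these stand close to the members by function. Pla2g4a, the cytosolic phospholipase that annexins can inhibit and that feeds prostaglandin synthesis, had 11702, 14996, 7067, 1317 and 582 counts, and like Anxa1 it was lowest on day 5. Plat, the plasminogen activator that Anxa2 and S100a10 can bind, had 13075, 3889, 5377, 638 and 954 counts, while the urokinase receptor gene Plaur had 30, 6, 46, 89 and 772 and the plasminogen gene Plg had 0 in every library. Plat was thus highest on day 3 morning and Plaur around the embryo. Tgm2, the tissue transglutaminase that crosslinks annexins and S100 proteins, had 609, 382, 500, 1171 and 6675 counts, with its highest library around the embryo. S100g, which encodes the EF-hand calcium buffer calbindin-D9k and falls outside the S100a names, had 7577, 37717, 51250, 85951 and 19459, highest away from the embryo and lower around it by −2.03 on the log2 scale. The penta-EF-hand relatives of Capns1, Pdcd6 and Sri, were past 2-fold higher around the embryo than on day 4 morning, at 1.96 and 1.86.

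Markers of other cells moved with the day 5 libraries. Epithelial keratins, claudins and cadherin, 10 of 10 measured and none at 0 in any library, summed to between 5584 CPM away from the embryo and 9188 CPM around it. Of the 10, 6 were past 2-fold higher around than away and 0 lower, beside 13.3% and 15% of all genes tested. Krt19 had 13708 counts on day 4 morning, 708 away and 2732 around, and trophectoderm also makes Krt8, Krt18, Cdh1 and Epcam. Of 11 embryo genes, Cdx2 had 22 counts, Pou5f1 68, Gata4 54, Nanog 10 and Hand1 5 in the library around the embryo and 0 in the other 4, while Prl3d1 was at 0 in all 5. Tfap2c had 79 counts away and 673 around, Eomes 26 and 609, Elf5 10 and 317, and Gata3 23 and 262. All 5 embryo genes above 1 CPM were past 2-fold higher around than away, with a median of 3.51, and 4 of the 5 were so against day 4 morning. Over all genes tested the shares past 2-fold higher were 13.3% and 20.7%. In the libraries before day 5, Elf5 had 49, 148 and 77 counts, Eomes 23, 62 and 40, and Tfap2c 10, 15 and 3. Elf5 was lowest away from the embryo, which widens its difference between the day 5 positions. Gata3 had 5, 6 and 8 counts before day 5 and reached a mean of 1 CPM only through the library around the embryo. The summed level of the 11 embryo genes, 769 to 2394 CPM, is mostly Sox17, which this layer held in each library. Stromal markers, 10 of 10 measured, summed to between 423 and 667 CPM and were lowest around the embryo, though Hand2 had 389 counts away and 2282 around. The 5 smooth muscle markers summed to 391.6 CPM around the embryo and to between 10.8 and 31.6 CPM elsewhere, led by Des with 6090 counts. Endothelial markers summed to 85.5 CPM around the embryo and to at most 28.3 CPM elsewhere. Cdh5 gave 71.4 CPM of that sum. Of the 5 endothelial markers 2 were past 2-fold higher and 2 lower around than away, beside 13.3% and 15% of all genes tested. The 4 gland markers in the table summed to between 6.54 and 37.6 CPM. Red cell genes, 3 of 5 in the table, reached at most 1.89 CPM. The part of embryonic or other cells in the S100, Anxa2, Cast and Ahnak values around the embryo was not tested.

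**Figure D5:**
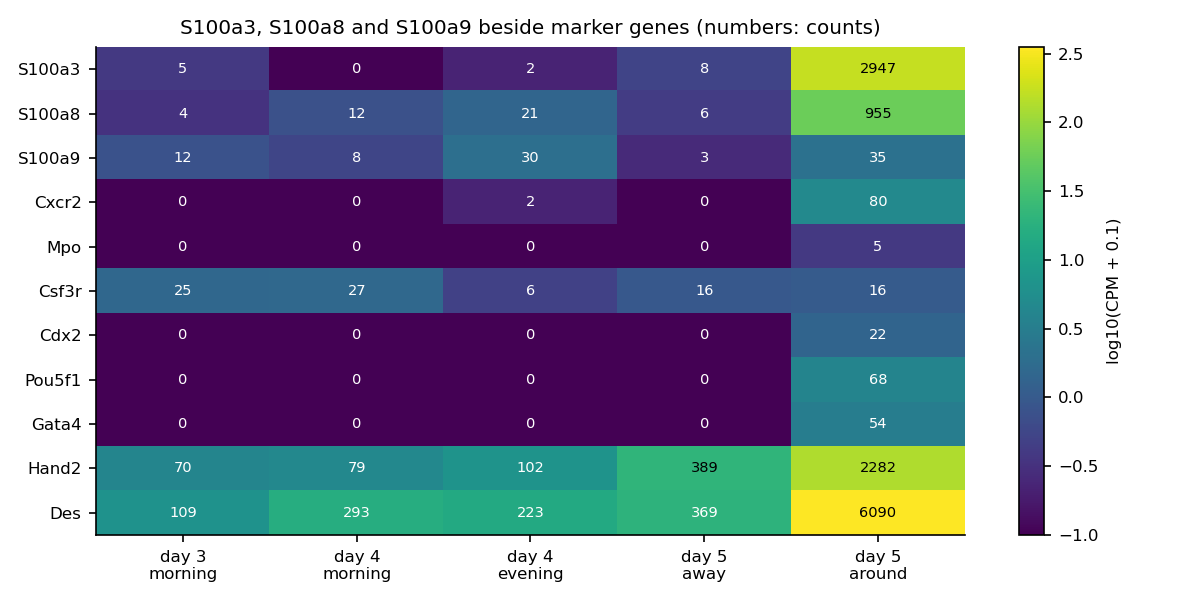
Counts of S100a3, S100a8 and S100a9 and of marker genes of neutrophils (Cxcr2, Mpo, Csf3r), embryo (Cdx2, Pou5f1, Gata4), stroma (Hand2) and smooth muscle (Des) in the 5 libraries (x axis), with colour for log10(CPM + 0.1). S100a3 with 2947 counts and S100a8 with 955 are high in the library around the embryo, which is also the one with embryo marker counts and the highest counts of Hand2 and Des.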

How the data were processed

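The luminal layer of wild-type uteri (5 samples) was measured. RNA was amplified with the SMART-seq v.4 kit and sequenced in pairs, and reads were aligned by HISAT2 to GRCm38/mm10 and counted per gene with featureCounts of Subread 2.0.0. The authors deposited these raw counts for 23420 genes, without normalization, with gene lengths and positions. The annotation, strand setting and treatment of reads with several alignments are not given in the sources used here.

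Counts were scaled by TMM in edgeR 4.0.16 (R 4.3.3) and read with Python 3.11.15, pandas 2.3.3 and scipy 1.17.1. Log2 CPM carried a prior count of 2, genes were kept where CPM of library totals averaged at least 1, and a gene was past 2-fold where its log2 difference was beyond 1. The groups have 1 library each, so no test was a main result. The code was tested on simulated data. Totals ranged from 15334674 to 19529491 counts, and intervals and floors cover counting error only, since reads carry no molecular identifiers.

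Values were given for members with a mean of at least 10 CPM past 2-fold in at least 1 comparison, for the subunit pairs, the calpain core and Ahnak. Members and lists were chosen with earlier results of these data known. Alternatives were DESeq2 1.42.0 size factors, library totals with and without Rn45s and Lars2, a prior count of 0.5, other filters, log2(RPKM + 1) and the edgeR exact test at a fixed dispersion of 0.1. Calls kept only where the counting interval leaves out 0, and a filter without the library around the embryo, were added after seeing the data.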

Additional observations from a re-analysis of the deposited data

Results flagged for a closer look

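S100a9 was taken up for a closer look because its values at the day 5 positions lay on opposite sides of day 4 morning, with log2 differences of −1.02 (away) and 1.94 (around). It rests on 8 counts before attachment, 3 at the distant position and 35 beside the embryo, and with library totals the former difference was −0.83. Each position has 1 library, and the difference between the 2 effects was not tested.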

How the results depend on the processing

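Over 1035 member values recomputed under the alternatives, 0 of those past 2-fold changed direction, 226 moved out of their counting interval and 31 changed their side of 2-fold. With library totals the median of all genes tested was −0.29 from day 3 to day 4 morning. It was 0.28 to day 5 away from the embryo and −0.36 between the day 5 positions. With TMM these medians were 0.00, 0.00 and −0.05. The moves of the members under library totals are to be read relative to this change. From day 3 to day 4 morning, library totals gave a member median of −0.69 and 3 higher members, beside 4.16% of all genes tested. For the same days log2(RPKM + 1) gave 0 higher members, beside 1.43%, and the edgeR exact test gave 1 higher and 1 lower. From day 4 morning to evening, 8 of all 43 members were higher and 2 lower without a filter, beside 8.25% and 7.06% of 23420 genes. With log2(RPKM + 1) 2 of 30 were higher and 0 lower, beside 3.13% and 1.92% of all genes tested. The exact test gave 0 and 0. For day 5 away from the embryo the member median was 0.13 with library totals and 0.11 with log2(RPKM + 1). Over all genes tested these medians were 0.28 and 0.21. The exact test gave 2 higher and 3 lower members there. Around the embryo the exact test gave 2 lower against day 4 morning and 0 lower against the layer away from it. The cause of these moves was not tested, except that the exact test at a dispersion of 0.1 asks for more than a 2-fold difference and that no filter adds members of few counts. Calls whose counting interval leaves out 0, added after seeing the data, were 4 higher and 5 lower from day 3 to day 4 morning, 3 and 1 to day 4 evening, 5 and 6 in the distant layer, 14 and 5 around the embryo and 12 and 1 between the day 5 positions. A filter without the library around the embryo, also added then, gave member medians of 0.52 and 0.64 for that library against day 4 morning and against the layer away from it. For the exact test and for the calls by counting interval, no share over all genes is given. Those member counts therefore cannot be set against other genes. No paired analysis was possible because each condition has 1 library, and no library could be left out for the same reason.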

Other observations

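Within the S100 genes the balance of abundant members differed between libraries. Per length, the ratio of S100a11 to S100a10 RPKM was between 3.79 and 6.14 in the 3 libraries taken before day 5, and it was 15.0 and 16.9 in the layers away from and around the embryo. The ratio of S100a6 to S100a11 RPKM was between 0.0748 and 0.108 in 4 libraries and 0.236 around the embryo. Each value comes from 1 library.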
